A study of Homo sapiens with 4 samples.

Results

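The FGF receptors FGFR1 to FGFR4, the hepatocyte growth factor receptor MET and its relative MST1R, the GAS6 receptor AXL, the collagen receptors DDR1 and DDR2 and the WNT5A-binding receptor ROR1 were examined in TE5, a human oesophageal squamous cell carcinoma line. These 10 genes are receptor tyrosine kinases outside the EGF receptor family and were found by gene name among the 55764 genes listed. All 10 were present, and 8 reached the mean level of 1 FPKM needed for testing. FPKM is the number of sequenced fragments per kilobase of gene, scaled to the library total. Levels of different genes are compared on that measure, and their order depends on the gene lengths used. The 2 ETS1 libraries came from TE5 cells stably carrying a CMV-driven vector for ETS1, a transcription factor, after lentiviral delivery and selection. The 2 control libraries came from TE5 cells given the empty backbone, whose genotype is labelled WT. All were grown in the same medium. The labels do not say whether the cells were pools or clones, or whether the libraries of a group came from separate cultures, so p-values measure the spread between these libraries, which may be technical.

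Receptor tyrosine kinases sit in the plasma membrane, bind a ligand outside the cell and signal through a kinase domain inside it. Ligand binding brings receptor chains together, they phosphorylate one another, and adaptor proteins dock on the phosphotyrosines and pass the signal to RAS and ERK, to PI3K and AKT, or to phospholipase C gamma. FGF receptors need heparan sulphate chains on proteoglycans to bind most FGFs, MET binds hepatocyte growth factor, and MST1R binds the related factor MST1. DDR1 and DDR2 differ from the others in that they bind collagen and are activated slowly. In squamous epithelium and its tumours these receptors are studied for their parts in growth, migration and invasion.

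ETS1 was 0.491 and 0.509 FPKM in the controls and 1.84 and 1.87 FPKM in the ETS1 libraries, a ratio of 3.71 with a limma adjusted p of 0.000704. ETS1 reached the mean of 1 FPKM needed for testing only through the group where it was high. The deposited tables allowed 40356723 and 44119604 reads to be recovered for the control libraries and 57269984 and 56502875 for the ETS1 libraries. The chi-square per gene between the libraries of a group averaged 3.94 in both groups, above counting noise. Of 8 squamous markers, 7 stayed under 1 FPKM in every library, and both controls had TP63, KRT14 and KRT5 at 0, so the squamous label was not borne out by these transcripts. The squamous markers summed to 0.544 to 0.682 FPKM in the controls and to 1.19 to 1.34 FPKM in the ETS1 libraries. SFN made up most of each sum, at 0.451 and 0.584 FPKM in the controls and 1.24 and 1.07 FPKM in the ETS1 libraries. KRT13 went the other way, with means of 0.0934 and 0.0572 FPKM. The simple epithelial markers summed to 16.1 to 16.3 and to 16.8 to 16.9 FPKM, with members on both sides. KRT8 was 3.91 and 3.87 FPKM in the controls and 6.48 and 6.59 FPKM in the ETS1 libraries (called higher by limma), and KRT18 went from 10.2 and 10.5 to 8.35 and 8.29 FPKM (called lower). CDH1 had mean levels of 0.569 and 0.998 FPKM, and EPCAM 1.36 and 1.02 FPKM. Fibroblast markers summed to 2.20 to 2.36 FPKM in the controls and 3.17 to 3.28 FPKM in the ETS1 libraries, and 7 of the 8 were under 1 FPKM, COL1A1 being the exception. Endothelial markers summed to 0.0604 to 0.0642 FPKM in the controls and 0.109 to 0.127 FPKM in the ETS1 libraries. In the leukocyte list PTPRC was at most 0.0117 FPKM, and NCAM1, at up to 6.03 FPKM, made up most of the sum, which was 7.10 to 7.11 FPKM in the controls and 7.71 to 7.91 FPKM in the ETS1 libraries. The part of these shifts in the receptor results was not tested, and in bulk RNA fewer cells carrying a transcript cannot be told apart from less of it per cell.

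Of the tested receptors DDR1 and DDR2 rose most, MET and FGFR1 fell, and FGFR3, the one with the highest FPKM, rose slightly. Of the 8 receptors tested, limma called 3 higher and 2 lower at an adjusted p under 0.05. Over all 14306 genes tested the shares were 30.7% higher and 28.4% lower, 59.1% in either direction, so the share of receptors called was near that of genes at large. The FPKM of the groups did not overlap for 9 of the 10 receptors, 6 higher and 3 lower in the ETS1 libraries. MST1R and AXL, both among the higher ones, were under the level needed for testing, so the next shares do not cover such genes. Of all tested genes 82.0% did not overlap, 43.1% higher and 38.9% lower. The median log2 change of the tested receptors was 0.086, and that of all tested genes was 0.016. With 2 libraries against 2 the smallest two-sided p of an exact permutation test on a single gene is 0.333, so the calls rest on the variance model that limma shares across genes.

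The upstream sequences of 4 of the called receptors are shown because ETS1 belongs to a family of factors that bind DNA around a GGAA core. The sequences are the 250 bases before a transcription start, read 5′ to 3′ along the gene, from RefSeq on GRCh38.p14, with GGAA and its reverse complement TTCC in capitals. Where a gene has several starts, the one with most GENCODE 29 transcript starts within 50 bases is shown; the MET window had none of these. FGFR1 is not shown.
DDR1, chr6:30882684-30882933, plus strand: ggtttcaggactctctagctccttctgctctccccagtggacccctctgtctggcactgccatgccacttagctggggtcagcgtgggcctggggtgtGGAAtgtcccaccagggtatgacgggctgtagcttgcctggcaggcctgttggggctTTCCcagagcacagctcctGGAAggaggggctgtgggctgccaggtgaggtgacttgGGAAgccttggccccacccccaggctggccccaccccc
DDR2, chr1:162632214-162632463, plus strand: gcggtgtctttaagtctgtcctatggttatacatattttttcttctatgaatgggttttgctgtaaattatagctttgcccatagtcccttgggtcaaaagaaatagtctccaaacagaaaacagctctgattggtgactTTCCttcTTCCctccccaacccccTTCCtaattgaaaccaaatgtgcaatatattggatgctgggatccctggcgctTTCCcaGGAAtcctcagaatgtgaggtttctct
FGFR3, chr4:1793043-1793292, plus strand: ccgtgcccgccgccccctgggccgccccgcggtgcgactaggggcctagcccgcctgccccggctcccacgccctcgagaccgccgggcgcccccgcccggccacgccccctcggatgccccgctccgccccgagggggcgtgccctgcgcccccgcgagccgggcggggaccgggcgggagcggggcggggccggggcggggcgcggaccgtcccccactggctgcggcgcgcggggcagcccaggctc
MET, chr7:116671946-116672195, plus strand: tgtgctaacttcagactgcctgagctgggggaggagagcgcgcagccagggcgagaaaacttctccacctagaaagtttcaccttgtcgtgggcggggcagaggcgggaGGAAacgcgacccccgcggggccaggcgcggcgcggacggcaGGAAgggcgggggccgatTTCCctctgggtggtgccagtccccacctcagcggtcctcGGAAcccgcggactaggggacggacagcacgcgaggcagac
The DDR2 window held 5 matches to the core, the DDR1 and MET windows 4 each, and the FGFR3 window 0. DDR2 and DDR1 thus had higher values in the ETS1 libraries and MET lower ones with similar numbers of matches. The median over 34943 windows of this length was 3 matches, and 92.7% of all windows held at least 1. The longer motif CCGGAAGT, searched on both strands and containing the core, was in none of the 24 windows of the 9 receptors matched and in 3.39% of all windows. These are letter matches in these windows and were not tested as sites of binding.

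The receptors spanned a wide range of levels. In the controls the order was FGFR3, MET, FGFR1, FGFR2, DDR1, FGFR4, DDR2, ROR1, MST1R and AXL, with mean FPKM from 12.05 down to 0.0705. Only the neighbours DDR1 and FGFR4 had overlapping ranges there. In the ETS1 libraries DDR1 and FGFR2 both stood above FGFR1, and the ranges of DDR1 and FGFR1 overlapped, while the other neighbours stayed apart. The remaining order was unchanged, with FGFR3 at 13.6 and AXL at 0.102 mean FPKM. FGFR3 stood at percentile 71.0 of the tested genes by mean FPKM, MET at 64.4, DDR2 at 16.9 and ROR1 at 7.81. Summed over the 10 receptors, the level was 47.3 FPKM in both controls and 48.6 and 49.1 FPKM in the ETS1 libraries. The order by FPKM depends on gene length, inferred as 12708 bases for FGFR1 and 4829 bases for FGFR3. By reads FGFR1 stood above FGFR3 in the controls, with 3760 and 4054 against 2328 and 2594.

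**Figure D1:**
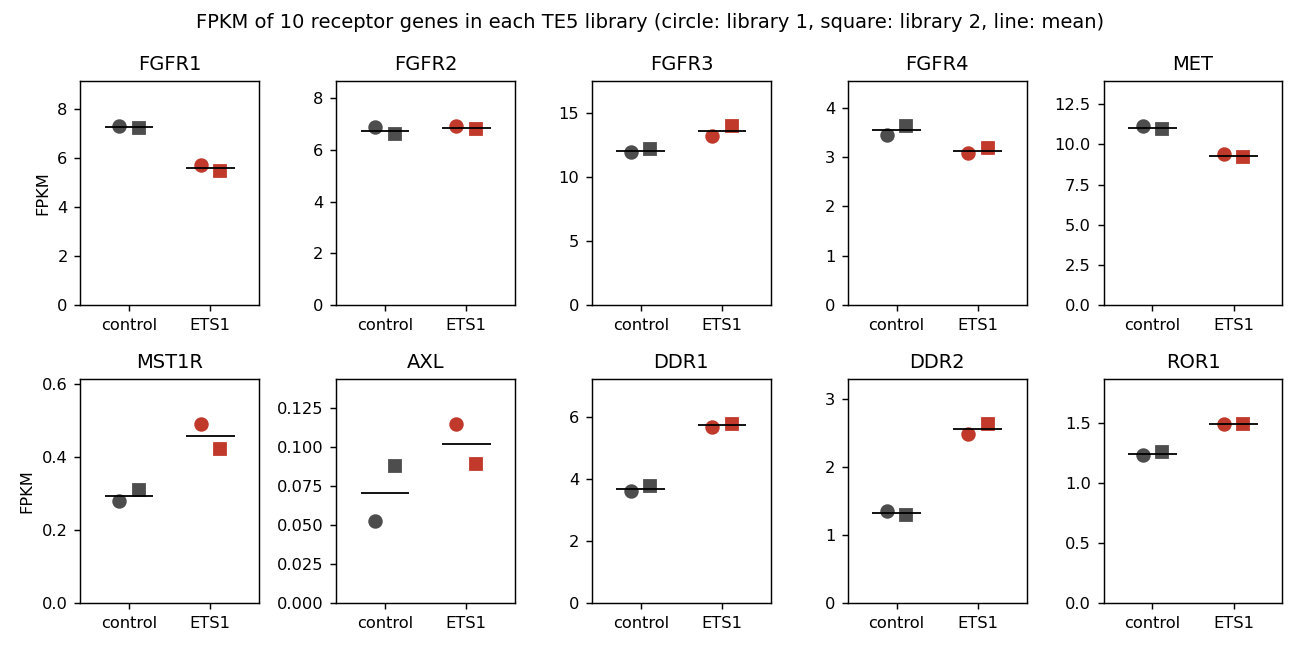
FPKM of each receptor in the 2 control (grey) and 2 ETS1 (red) libraries, 1 panel per gene with its own vertical axis from 0; circles are library 1, squares library 2 and lines the group mean. The groups are apart for every receptor except FGFR2, and for AXL the gap is small (0.088 against 0.0893 FPKM).

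DDR1, the broadly epithelial collagen receptor, was 3.60 and 3.76 FPKM in the controls and 5.67 and 5.78 FPKM in the ETS1 libraries, from 1328, 1514, 2966 and 2981 reads. Both ETS1 values lay well above both control values, a ratio of the means of 1.55. The gene lies on chromosome 6 at 30876421 to 30900156, plus strand, in GENCODE 29 on GRCh38. The log2(FPKM + 1) change of DDR1 was 0.52 (SE 0.040, limma adjusted p 0.000907), where SE is the standard error.

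DDR2, its relative better known from mesenchymal cells, lies on chromosome 1 at 162631373 to 162787400, plus strand. It was 1.36 and 1.29 FPKM in the controls and 2.49 and 2.64 FPKM in the ETS1 libraries, with 588 and 613 reads against 1535 and 1607. The groups did not overlap and the ratio of the means was 1.94, the largest of the 10 receptors. On the log2(FPKM + 1) scale DDR2 changed by 0.62 (SE 0.055, limma adjusted p 0.00125). That scale understates a gene so near 1 FPKM, and voom on the recovered reads gave 0.96. The sizes of change of DDR1 and DDR2 were above those of 90.3% and 94.3% of tested genes. The tested genes within 5 Mb of DDR1 had a median change of 0.035 and those within 5 Mb of DDR2 a median of 0.020.
The ratio of DDR1 to DDR2 FPKM was 2.66 and 2.91 in the controls and 2.27 and 2.18 in the ETS1 libraries. DDR1 thus remained the more abundant, by a smaller margin and without overlap between the groups. The ratio itself was not tested.

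Among the FGF receptors FGFR3 was higher and FGFR1 lower in the ETS1 libraries, while the sum was only slightly lower, without overlap. FGFR3 was 11.9 and 12.2 FPKM in the controls and 13.2 and 13.97 FPKM in the ETS1 libraries. The groups were apart, though the ETS1 libraries differed from each other by more than the controls did. The change was 0.16 on the log2(FPKM + 1) scale (SE 0.039, limma adjusted p 0.0212). FGFR3 lies on chromosome 4 at 1793293 to 1808872, plus strand. Its call was lost without ETS1 library 2 (0.12, limma adjusted p 0.12) and without control library 1 (0.15, adjusted p 0.0624). It was also lost when the chromosome's median change of 0.11 was removed (0.047, adjusted p 0.335).

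FGFR1, an FGF receptor prominent in mesenchymal tissues, was 7.32 and 7.22 FPKM in the controls and 5.72 and 5.50 FPKM in the ETS1 libraries, from 3760, 4054, 4166 and 3956 reads. Both ETS1 values were below both control values, with a ratio of 0.771. The log2(FPKM + 1) scale gave a change of -0.32 (SE 0.037, limma adjusted p 0.0022). FGFR1 lies on chromosome 8 at 38400215 to 38468834, minus strand, where neighbouring genes were lower too. Of the 36 other tested genes within 5 Mb, 27 had a negative change and 21 were called lower, with a median of -0.25. With that local median removed FGFR1 changed by -0.073 and the call was lost (limma adjusted p 0.133). With the chromosome's median removed it was -0.16, with an adjusted p of 0.0128.

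FGFR2, which in its epithelial splice form binds FGF7 and FGF10, was 6.89 and 6.61 FPKM in the controls and 6.94 and 6.80 FPKM in the ETS1 libraries. The groups overlapped, and the change of 0.022 had a 95% interval of -0.076 to 0.12 and a limma adjusted p of 0.641. FGFR2 lies on chromosome 10 at 121478334 to 121598458, minus strand. Splice forms of FGFR1, FGFR2 and FGFR3 are not separated in a value per gene.
FGFR4, the main receptor for FGF19 together with KLB, was 3.45 and 3.63 FPKM in the controls and 3.08 and 3.17 FPKM in the ETS1 libraries. The groups did not overlap, with a change of -0.14, a 95% interval of -0.26 to -0.020 and a limma adjusted p of 0.0503, just outside the threshold. It passed under 7 of 16 alternatives, such as quantile normalization (-0.18, adjusted p 0.023). FGFR4 lies on chromosome 5 at 177086886 to 177098144, plus strand.

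The sum of FGFR1 to FGFR4 was 29.6 FPKM in both controls and 28.9 and 29.4 FPKM in the ETS1 libraries. Within it FGFR3 held 40.3% and 41.1% in the controls and 45.6% and 47.4% in the ETS1 libraries. The share of FGFR1 went the other way, from 24.7% and 24.4% to 19.8% and 18.7%. FGFR2 held between 22.3% and 23.99% in every library, with overlapping groups. The ratio of FGFR3 to FGFR1 was 1.63 and 1.68 in the controls and 2.31 and 2.54 in the ETS1 libraries. The sum, the shares and this ratio were not tested, and their size depends on the gene lengths behind FPKM. FGFRL1, which binds FGFs but has no kinase domain, was 12.7 FPKM in both controls and 9.52 and 9.60 FPKM in the ETS1 libraries. FGFRL1 fell by 0.38 on the log2(FPKM + 1) scale (SE 0.030, limma adjusted p 0.000972).

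**Figure D2:**
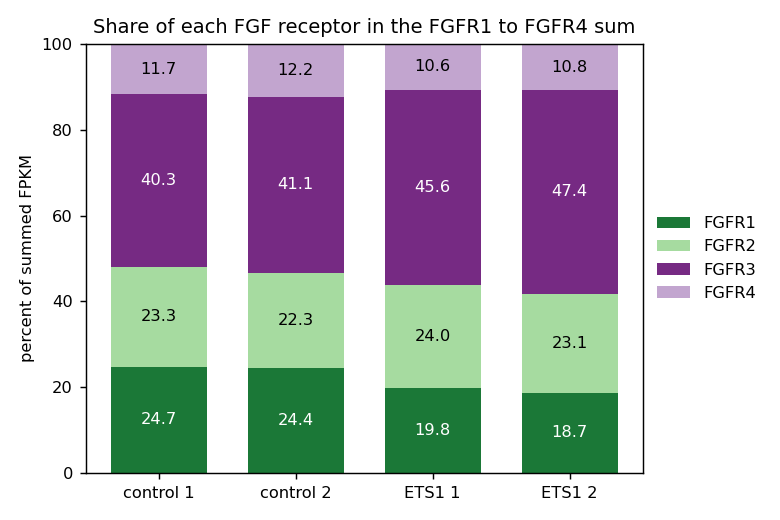
Share of each FGF receptor in the summed FPKM of FGFR1 to FGFR4, in percent, 1 stacked bar for each of the 4 libraries. FGFR3 takes 40.3% and 41.1% of the sum in the controls and 45.6% and 47.4% in the ETS1 libraries, and FGFR1 a smaller share in the ETS1 libraries.

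MET, the receptor of hepatocyte growth factor, was 11.1 and 10.9 FPKM in the controls and 9.42 and 9.19 FPKM in the ETS1 libraries, from 3198, 3427, 3836 and 3693 reads. The ETS1 values were lower without overlap, with a ratio of 0.843. MET fell by 0.22 on the log2(FPKM + 1) scale (SE 0.033, limma adjusted p 0.00443). The gene lies on chromosome 7 at 116672390 to 116798386, plus strand, and the 17 tested genes within 5 Mb had a median of 0.079. MET kept its call under all 17 alternatives, with changes from -0.33 to -0.21.

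MST1R, the relative of MET that binds MST1, was 0.279 and 0.311 FPKM in the controls and 0.492 and 0.421 FPKM in the ETS1 libraries. These values came from 59, 72, 148 and 125 reads and did not overlap, with a ratio of the means of 1.55, as for DDR1. The mean level was under 1 FPKM, so the main test did not cover it. With no filter the log2(FPKM + 1) change was 0.17 (limma adjusted p 0.106), and voom on the recovered reads gave 0.62 with a 95% interval of 0.22 to 1.02 and an adjusted p of 0.0116. Voom called 59.9% of all genes it covered, 32.0% higher and 27.8% lower. Those genes averaged 0.5 FPKM or more, except MST1R and AXL, which were added, so that share is no like background for MST1R. MST1R lies on chromosome 3 at 49887002 to 49903873, minus strand, and 6.23% of its exon bases also belong to an antisense gene on the other strand. Whether counting used strand is not given in the sources used here.

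AXL was close to absent, at 0.0529 and 0.0880 FPKM in the controls and 0.115 and 0.0893 FPKM in the ETS1 libraries, from 11, 20, 34 and 26 reads. The higher control and the lower ETS1 library nearly met. Voom on those reads gave a change of 0.54 with a 95% interval of -0.23 to 1.30 and an adjusted p of 0.207, so a difference was not detectable at this depth. AXL lies on chromosome 19 at 41219203 to 41261766, plus strand. Its relatives TYRO3 and MERTK, which bind GAS6 and PROS1, were the abundant members of that family. TYRO3 was 7.83 and 8.12 FPKM in the controls and 5.57 and 5.53 FPKM in the ETS1 libraries (-0.46, limma adjusted p 0.000978). MERTK was 4.26 and 4.37 FPKM in the controls and 3.88 and 3.49 FPKM in the ETS1 libraries (-0.18, adjusted p 0.0392), and it lost its call under 6 of 16 alternatives. Among these, the MERTK log2 change was -0.20 without control library 1, -0.17 without control library 2 and -0.12 without ETS1 library 2. TYRO3 lies on chromosome 15, and the tested genes around it had a median of -0.33. With that median removed it changed by -0.12 and stayed under the threshold (limma adjusted p 0.0277). AXL made up at most 1.21% of the summed FPKM of the 3 genes in any library.

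ROR1, a receptor of WNT5A, was 1.23 and 1.254 FPKM in the controls and 1.49 in both ETS1 libraries, with 340, 379, 583 and 578 reads. The groups did not overlap, yet the change of 0.15 did not pass (95% interval 0.0036 to 0.30, limma adjusted p 0.0728). Voom on the recovered reads gave 0.26 with an adjusted p of 0.0152. ROR1 lies on chromosome 1 at 63774022 to 64181498, plus strand, where the 29 tested genes within 5 Mb had a median of 0.18. With that median removed ROR1 changed by -0.030 (limma adjusted p 0.64). Its relative ROR2 was 1.05 and 1.18 FPKM in the controls and 1.71 and 1.80 FPKM in the ETS1 libraries, a change of 0.38 (limma adjusted p 0.00673).

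**Figure D3:**
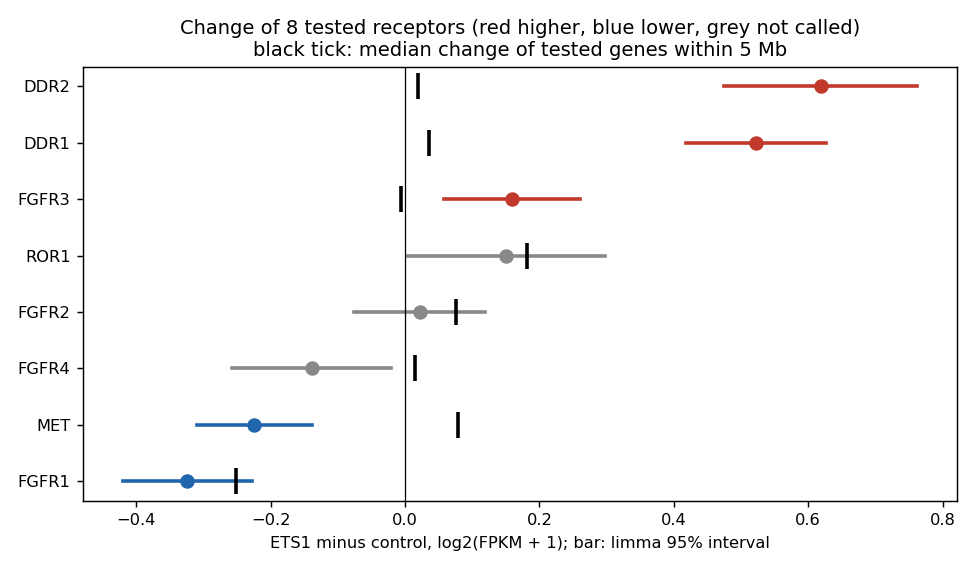
Change of the 8 tested receptors on the log2(FPKM + 1) scale, ETS1 minus control, with limma 95% intervals as bars; red is called higher, blue lower, grey not called, and the black tick is the median change of the tested genes within 5 Mb. DDR1 and DDR2 stand far to the right of their ticks, while FGFR1, FGFR2 and ROR1 have intervals that include theirs.

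The authors' deposited table made the same calls for these 8 receptors. In the authors' deposited table the log2 fold change is 0.92 for DDR2 (adjusted p 2.88e-21) and 0.60 for DDR1 (adjusted p 1.55e-17). FGFR1 is at -0.39 and MET at -0.26 in the authors' deposited table, with adjusted p-values of 3.43e-12 and 7.67e-06. The authors' deposited table gives FGFR3 0.14 (adjusted p 0.0318), FGFR4 -0.18 (adjusted p 0.0862) and ROR1 0.20 (adjusted p 0.122). Over all genes the authors' deposited table calls 51.2% of those it adjusts, 25.3% higher and 25.9% lower.

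The ligands were examined next. Of 22 FGF genes 5 were tested, and 2 were called higher and 3 lower, beside 30.7% and 28.4% of all tested genes. FGF13, FGF17 and FGF21 reached a mean of 1 FPKM only through the group where they were high, so the count favours genes that differed. Without ETS1 library 2 limma called 0 higher, and FGF21 was then not tested. FGF13, an intracellular member that does not act as a secreted ligand, went from 2.76 and 2.20 FPKM to 0.491 and 0.517 FPKM (-1.20, limma adjusted p 0.000969). FGF17 fell by 0.58 and FGF9 by 0.27 on the log2(FPKM + 1) scale. The tested genes around FGF17 had a median of -0.43, and with it removed the FGF17 log2 change was -0.15 and its call was lost (limma adjusted p 0.0509). FGF21, an endocrine FGF, went from 0.736 and 0.501 FPKM to 1.68 and 1.97 FPKM (0.80, limma adjusted p 0.0030). FGF2, a secreted FGF that binds several of the receptors, was 2.02 and 2.05 FPKM in the controls and 2.59 and 3.07 FPKM in the ETS1 libraries (0.33, adjusted p 0.0157). Its call was lost under 5 of 16 alternatives, among them without ETS1 library 2 (0.24, limma adjusted p 0.0617), and 11.9% of its exon bases also belong to NUDT6 on the other strand. FGF7 and FGF10, ligands of epithelial FGFR2, were at most at 0.0238 FPKM in any library. FGF10 was listed at 0 in all 4.

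Hepatocyte growth factor itself, HGF, was covered by 0 and 1 reads (controls) and by 4 and 2 reads (ETS1), at or near the limit of detection in every library. MST1, the ligand of MST1R, was 7.01 and 7.22 FPKM in the controls and 8.33 and 8.27 FPKM in the ETS1 libraries (0.20, limma adjusted p 0.00722). Near-identical copies of MST1 in the genome can share its reads, so this value is uncertain. GAS6 was 3.45 and 3.59 FPKM in the controls and 4.18 and 3.70 FPKM in the ETS1 libraries (0.12, adjusted p 0.139). PROS1, a ligand of TYRO3 and MERTK, rose by 0.23 (limma adjusted p 0.00691). The value of PROS1 turned to -0.057 with the local median removed, and the PROS1 log2 change lost its call without ETS1 library 2 (0.22, limma adjusted p 0.0519). WNT5A was 4.85 and 4.31 FPKM in the controls and 6.38 and 6.44 FPKM in the ETS1 libraries (0.41, limma adjusted p 0.00376). SPINT2, an inhibitor of the proteases that activate HGF, went from 3.32 and 3.29 FPKM to 7.29 and 6.88 FPKM (0.91, adjusted p 0.000482). Of the 13 genes in this list 7 were tested, with 4 higher and 1 lower, beside 30.7% and 28.4% of all tested genes. The lower one was FURIN, a protease that cleaves the MET precursor (-0.20, adjusted p 0.0113), and its change turned to 0.027 with the chromosome's median removed. Without ETS1 library 1 the FURIN log2 change was -0.18 and its call was lost (limma adjusted p 0.0626).

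Collagen genes whose products bind DDR1 or DDR2 were higher or not called. Of 14 listed, 7 were tested, 5 were called higher and 0 lower, and all 7 changes were positive with a median of 0.30, beside 30.7% higher, 28.4% lower and a median of 0.016 over all tested genes. With all 7 limma changes positive, the count of 0 lower at an unadjusted p is fixed, and voom and the authors' deposited table also call 0 lower. Of the 7 tested, the genes with the largest changes were COL4A5 (0.66), COL4A2 (0.37), COL4A1 (0.32) and COL1A1 (0.30), with limma adjusted p-values of at most 0.00599. COL4A2 was 6.502 and 6.81 FPKM in the controls and 8.99 and 8.84 FPKM in the ETS1 libraries, and COL4A5 went from 3.43 and 3.45 to 5.77 and 6.23 FPKM. COL1A1 is also in the fibroblast marker list. COL1A2, whose product pairs with that of COL1A1 in type I collagen, had 0 reads in 3 libraries and 1 read in the other.

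Of 17 co-receptors and decoys, 12 were tested, with 8 called higher and 2 lower, beside 30.7% and 28.4% of all tested genes. The 8 became 5 without ETS1 library 2 and 5 with the local median removed. The largest changes of the tested genes included 3 glypicans, which carry heparan sulphate. GPC6 changed by 0.49, GPC1 by 0.45 and GPC3 by 0.38, with limma adjusted p-values of at most 0.00234. GPC3 was 10.9 and 10.3 FPKM in the controls and 14.2 and 13.9 FPKM in the ETS1 libraries. GPC1 lost its call with the local median removed (0.059, limma adjusted p 0.26). FGFRL1 and NRP2 were the 2 called lower. KL and KLB, co-receptors of the endocrine FGFs, were at most at 0.0669 FPKM.

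Among the adaptors and effectors most tested genes were called higher. Of 29 listed, 28 were tested, with 18 higher, 2 lower and a median of 0.24, beside 30.7% higher, 28.4% lower and a median of 0.016 over all tested genes. The largest changes among the tested genes were those of SOS1 (0.51), a RAS exchange factor, NRAS (0.46), PTPN11 (0.43), the SHP2 phosphatase, and SHC1 (0.43), an adaptor that shares 7.72% of its exon bases with PYGO2. Their limma adjusted p-values were at most 0.0068. With the length and GC trend removed the SOS1 log2 change was 0.29, still called. PTPN11 was 22.0 and 21.1 FPKM in the controls and 28.9 and 29.9 FPKM in the ETS1 libraries. The 2 called lower were HRAS and MAP2K2, and without ETS1 library 2 only 1 was called lower. The docking protein FRS2, which links FGF receptors to GRB2, was not among the 4 largest and changed by 0.37 (adjusted p 0.00223).
Feedback inhibitors, ubiquitin ligases and sheddases gave 15 tested of 23, with 7 higher and 3 lower, beside 30.7% and 28.4% of all tested genes. With the local median removed 6 were lower. CBLB, called higher, and IL17RD, not called, reached a mean of 1 FPKM only through the group where they were high. SPRED2 was lower (-0.41) and CBL (0.37), a ubiquitin ligase for MET and other receptors, higher. CBLB (0.34) and DUSP5 (0.33) were also called higher by limma. CBLB turned to -0.011 with the local median removed and lost its call under 3 more of 14 alternatives. SPRY4 and DUSP6, often read as markers of FGF receptor signalling, were at most at 0.248 FPKM.
In the list of ERK-responsive genes, 8 of 13 were tested, with 3 higher and 2 lower, near the 30.7% and 28.4% of all tested genes. FOSL1, 1 of the 3 higher, reached a mean of 1 FPKM only through the ETS1 libraries. EGR1 went from 2.28 and 2.23 FPKM to 6.02 and 6.05 FPKM (1.11) and IER3 from 4.39 and 4.20 to 7.98 and 7.61 FPKM (0.73). CCND1, which encodes cyclin D1, went from 7.10 and 7.32 FPKM to 3.81 and 3.74 FPKM (-0.78), and EPHA2 changed by -0.48. Limma adjusted p-values of these 4 genes were at most 0.000978. Antisense or overlapping genes share 26.5% of the exon bases of IER3 (IER3-AS1) and 10.3% of those of CCND1 (LTO1), both on the other strand.

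**Figure D4:**
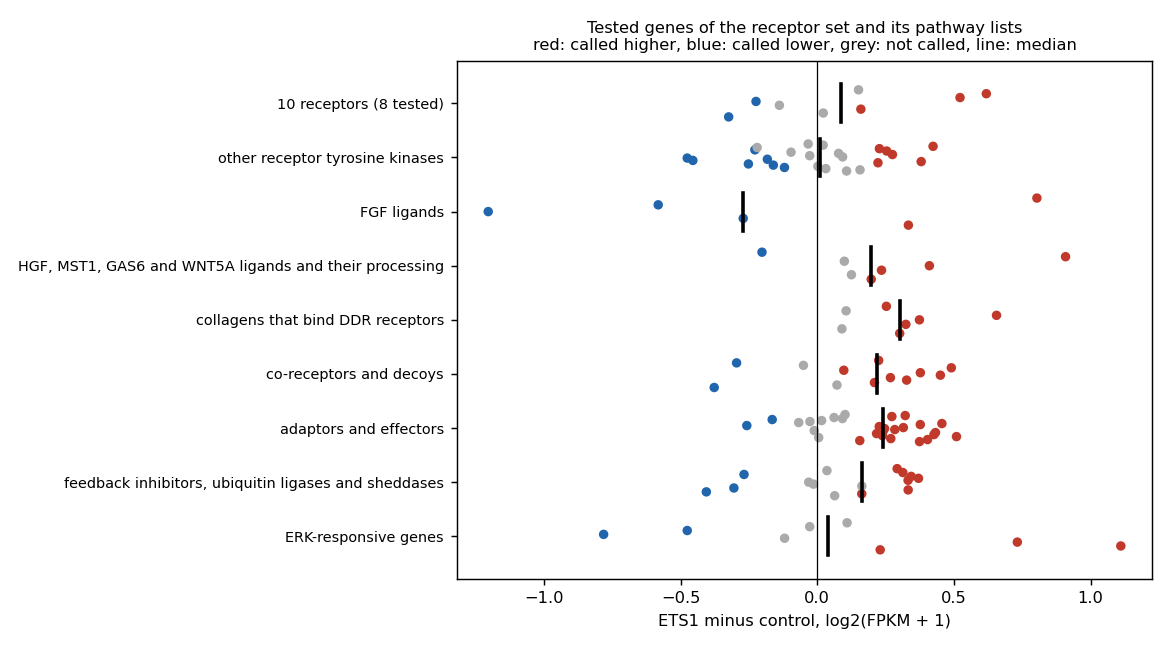
Log2(FPKM + 1) change of every tested gene of the receptors and of 8 related lists, ETS1 minus control, 1 dot per gene, red for called higher, blue for called lower, grey for not called, with a line at each list's median. The collagen list lies wholly right of 0 (median 0.30), the adaptors mostly so (median 0.24), and the receptors spread to both sides.

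The other receptor tyrosine kinases were counted for comparison. Of 48 listed, 24 were tested, with 6 called higher, 7 lower and a median of 0.012, shares near the 30.7% and 28.4% of all tested genes. EPHB6, called higher, and RET, called lower, reached a mean of 1 FPKM only through the group where they were high. The 7 lower became 3 with the replicate block, 4 without control library 1 or without ETS1 library 1, and 3 without control library 2 or without ETS1 library 2. EPHA2 (-0.48), TYRO3 (-0.46), AATK (0.42) and ROR2 (0.38) had the largest changes of the 24 tested on the log2(FPKM + 1) scale. By the ratio of mean FPKM, AATK (1.602) and ROR2 (1.57) were close to DDR1 (1.55) and below DDR2 (1.94), and these differences were not tested. By profile over the 4 libraries, the tested genes nearest to DDR2 were PLEKHF2 (distance 0.0109 in log2 units) and the pseudogene SUDS3P1 (0.0115). The genes nearest to FGFR3 were PRPF18 (0.0049) and ZFP69 (0.00646). With 4 libraries in 2 groups, such likeness is mainly a like size of change.

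**Figure D5:**
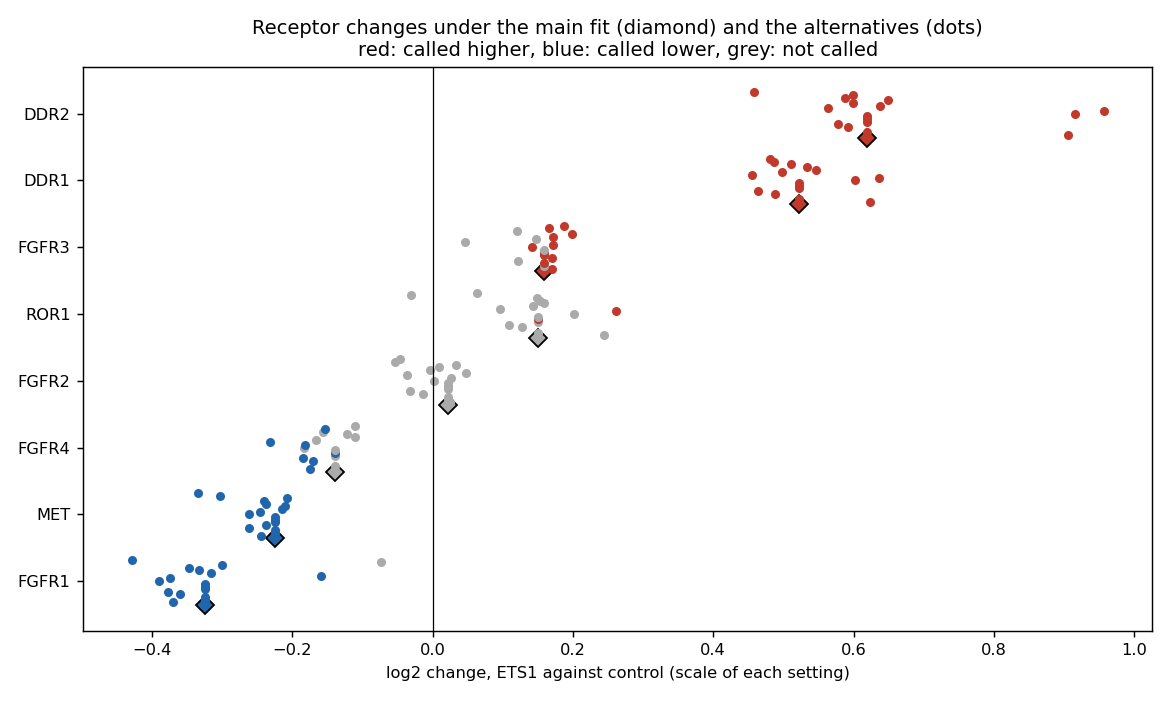
Log2 change of the 8 tested receptors under the main fit (diamond) and up to 17 alternatives (dots), coloured red for called higher, blue for called lower and grey for not called; the scale of a dot is that of its setting. DDR1, DDR2 and MET are called in every setting that tested them, while FGFR1 turns grey at -0.073 and FGFR3, FGFR4 and ROR1 hold dots of both kinds.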

How the data were processed

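Bulk RNA was sequenced in 2 control and 2 ETS1 libraries of TE5 cells. The authors deposited FPKM for 55764 genes. They also deposited a comparison of the 16652 genes that averaged 0.5 FPKM or more. Per the file headers, it holds log2 fold changes with standard errors on the log2 scale, p-values and adjusted p-values, and a mean normalized count, which is a signal averaged over libraries. The authors used HISAT2, HTSeq and DESeq2 with hg38/GRCh38, per the submitters' processing notes, which give no roles or versions. Annotation and strand use are not given in the sources used here.

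FPKM was tested as log2(FPKM + 1) with limma 3.58.1 (R 4.3.3; group term, intensity trend, 2 residual and 2.84 prior degrees of freedom) on 14306 genes that averaged 1 FPKM or more. All p-values are two-sided, and adjustment (Benjamini-Hochberg) ran over every tested gene. Reads were recovered from FPKM and the mean normalized count. Of these values 99.7% lay within 0.05 of a whole number, where chance gives 10%; reads of genes outside the comparison are the smallest whole-number solution near the annotated length. Voom on these reads called 9774 of 16324 genes. It covered genes of the authors' comparison that averaged at least 10 reads, with MST1R and AXL added. Positions are from GENCODE 29, matched by current or older name for 84.0% of tested genes. Fits were also run on simulated data in which far fewer genes changed than were called here, so that run does not test these calls.

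The members and lists were chosen with earlier results of these data known. Named genes are the 10 receptors, ETS1, the 4 largest changes of each list, 9 fixed ligands and relatives, and the 2 nearest profiles of DDR2 and FGFR3; any other gene was named after its values were seen. PECAM1 was not analysed here. The alternatives were another pseudocount, other filters, trimmed-mean and quantile scaling, a replicate block, a prior without trend, a stricter threshold, the authors' values, voom, removal of the chromosome median and each library left out. Removal of a local median within 5 Mb and of a length and GC trend were chosen after seeing the data.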

Additional observations from a re-analysis of the deposited data

How the results depend on the processing

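Across 17 alternatives, DDR1, DDR2 and MET kept their calls wherever they were tested, and FGFR1 lost its call under 1 and FGFR3 under 6. The number of receptors called higher moved from 3 to 1 at a mean FPKM of at least 5, where only 4 receptors are tested. It moved to 5 under voom on recovered reads, which covers all 10 because MST1R and AXL were added to its genes. For the 8 lists together, each gene once, 104 genes were tested, and 53 were called higher and 19 lower. The background over all tested genes was 30.7% higher and 28.4% lower. At a mean FPKM of at least 5 the list counts were 25 and 12, with 53 of the 104 tested. That setting called 2562 higher and 3000 lower of all 8215 genes. With each library left out in turn, receptors called higher ranged from 2 to 3 and lower stayed at 2, and list genes ranged from 36 to 49 higher and from 14 to 16 lower. The FGFR2 log2 change, never called, turned to -0.014 with trimmed-mean scaling, -0.032 with quantile normalization, -0.036 with the chromosome median removed, -0.00407 to 0.048 with each library left out (the lowest without control library 2), -0.054 with the local median removed and -0.046 with the length and GC trend removed. Removal of the local median turned ROR1 to -0.030, CBLB to -0.011 and PROS1 to -0.057, and removal of the chromosome median turned FURIN to 0.027; the cause was not tested.

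With the replicate number as a block, 3 receptors were called higher and 2 lower, and list genes were 48 higher and 15 lower. Over all genes the block moved the calls from 8451 to 7283, and they numbered 5386 at an adjusted p under 0.01 and 5562 at a mean FPKM of at least 5 (8215 genes tested). Deviations of same-numbered libraries from their group means had a correlation of -0.046 across genes. This single value cannot show whether same-numbered libraries were handled together. Depth limits AXL and HGF, with at most 34 reads per library.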

Other observations

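A pair of genes tied to these receptors stood out below the level needed for testing and were chosen after their values were seen. CD44, a cell-surface glycoprotein that can act as a co-receptor of MET, was 0.0320 and 0.0360 FPKM in the controls and 0.416 and 0.383 FPKM in the ETS1 libraries, from 13, 16, 240 and 218 reads. With no filter, limma gave CD44 a log2(FPKM + 1) change of 0.44 with an adjusted p of 0.0092. ROS1, a receptor tyrosine kinase outside the 10, was 0.0853 and 0.0694 FPKM in the controls and 0.666 and 0.607 FPKM in the ETS1 libraries, from 27, 24, 299 and 269 reads. Its change with no filter was 0.60, with a limma adjusted p of 0.00933. For both genes the ETS1 values lay far above the controls, though still under 1 FPKM.

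COL5A2, a further fibrillar collagen gene, was 0.448 and 0.378 FPKM in the controls and 1.06 and 0.846 FPKM in the ETS1 libraries, a change of 0.46 with no filter (limma adjusted p 0.0417). DUSP4, an ERK phosphatase gene, went the other way, from 1.26 and 1.19 FPKM to 0.542 and 0.622 FPKM, a change of -0.49 with no filter (adjusted p 0.0237). It lies on chromosome 8.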
